A study of Mus musculus with 30 samples.

Results

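The 37 genes of the mouse mitochondrial genome were taken as every gene that the count files place on chromosome MT, out of 50686 genes in all. They were 13 protein genes, 2 ribosomal RNA (rRNA) genes and 22 transfer RNA (tRNA) genes. RNA was measured in 30 thyroid libraries of C57BL/6 mice, with 3 libraries in each of 10 groups. The groups were FAD4T males and wild-type males of 8 months, FAD4T males and wild-type males of 2 months, FAD4T females and wild-type females of 8 months, FAD4T females and wild-type females of 2 months, and, in an ageing set of its own, wild-type males of 18 months and further wild-type males of 2 months. The labels give FAD4T as a genotype and say nothing more of the allele, of its promoter or of how many lines were used. The wild-type males of 2 months carried title numbers 1 to 3 beside the FAD4T males and 4 to 6 beside the 18-month males. The labels do not say whether mice shared a litter or a cage, so a p-value measures only the spread between these libraries.

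Mitochondrial DNA is a small circle that is transcribed in both directions into long precursor RNAs, in which tRNAs sit between the messenger and ribosomal RNAs and mark most of the places where the precursor is cut. The products are core subunits of respiratory complexes I, III and IV and of the ATP synthase, and the RNAs of the mitochondrial ribosome. Most mitochondrial messenger RNAs carry a short poly(A) tail, mt-Nd6 being the usual exception, and pieces of the circle have been copied into nuclear chromosomes in the course of evolution. In the thyroid, follicle cells need much oxidative metabolism to take up iodide and make hormone.

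The nuclear copies bear on how these genes can be counted, so the sequences are given first, from the GENCODE M21 transcripts of GRCm38. A run of chromosome 1, 24611535 to 24616197 on the minus strand, holds 7 annotated gene models that match mitochondrial bases 6390 to 11042, a stretch of 4653 bases. The run covers the end of mt-Co1, all of mt-Co2, mt-Atp8, mt-Atp6, mt-Co3, mt-Nd3 and mt-Nd4l, 5 tRNA genes and the start of mt-Nd4. The pairs that differ are mt-Co1 with its copy Gm29216 and mt-Nd3 with its copy Gm28438, each at 1 base of the aligned stretch, set in capitals here:
mt-Co1, MT:6390-6439, plus strand: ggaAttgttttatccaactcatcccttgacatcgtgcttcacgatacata
Gm29216, chr1:24616139-24616188, minus strand: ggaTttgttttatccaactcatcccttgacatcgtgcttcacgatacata
mt-Nd3, MT:9459-9508, plus strand: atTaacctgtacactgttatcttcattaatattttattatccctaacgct
Gm28438, chr1:24613070-24613119, minus strand: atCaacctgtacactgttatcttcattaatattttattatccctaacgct
The differences are A1066T in mt-Co1 and T3C in mt-Nd3, counted from the first base of the mitochondrial gene, with its base given first and that of the copy last.

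The other protein genes of the run were identical to their copies over the whole aligned length: mt-Co2 with Gm28661 over 681 bases, mt-Atp6 with Gm10925 over 678, mt-Co3 with Gm28437 over 783, mt-Nd4l with Gm10222 over 294 and the start of mt-Nd4 with Gm28439 over 876. The first 50 bases of the 4 genes identical to their whole copy are shown because each was called in the comparison of 8 with 2 months below, with the start codon in capitals:
mt-Co2, MT:7013-7062, plus strand: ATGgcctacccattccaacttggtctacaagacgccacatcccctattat
mt-Atp6, MT:7927-7976, plus strand: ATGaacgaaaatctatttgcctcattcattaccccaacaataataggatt
mt-Co3, MT:8607-8656, plus strand: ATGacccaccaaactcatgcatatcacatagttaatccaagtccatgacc
mt-Nd4l, MT:9877-9926, plus strand: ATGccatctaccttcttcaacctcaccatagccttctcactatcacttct
Of all stretches of 150 bases, the read length (or of the whole gene, where shorter), 99.4% in mt-Co2, 99.4% in mt-Atp6, 99.8% in mt-Co3, 97.0% in mt-Nd3 and 98.0% in mt-Nd4l were also found in a nuclear gene model. The share was 59.2% in mt-Nd4, 23.6% in mt-Co1 and 0 in the other 30 genes. For mt-Atp8 and the 5 tRNA genes of the run, chromosome 1 has no annotated model to compare with. A read that fits both places equally well cannot be assigned to either from its sequence.

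Counts were very uneven along the genome. Protein genes took 97.7% of all mitochondrial counts, rRNA genes 2.04% and tRNA genes 0.220%, in libraries made from poly(A)-selected RNA, which keeps only the part of rRNA and tRNA that carries an A-tail or lies in uncut precursors. Levels between genes are compared here as RPKM, which is CPM (counts scaled to the TMM-adjusted library total) divided by gene length in kilobases. The level of mt-Co1, the catalytic subunit of cytochrome c oxidase (complex IV), was the highest, with a median of 9223 RPKM over 30 libraries and a range of 5412 to 13774. The median level was 5854 RPKM for mt-Cytb, the mitochondrial subunit of complex III, and 4840 for mt-Nd1 and 2401 for mt-Nd2, membrane subunits of complex I. Other complex I subunits had median levels of 2104 RPKM for mt-Nd4, 1238 for mt-Nd5 and 2143 for mt-Nd6, the protein gene of the opposite strand.

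Every protein gene wholly inside the copied run lay far below these levels. The highest of the 6 was mt-Co2, a copper-binding subunit of complex IV, with a median level of 48.6 RPKM and a range of 17.1 to 148. The median level was 33.7 RPKM for mt-Co3, the other complex IV subunit of the run, 26.2 for mt-Nd3 and 5.26 for mt-Nd4l, both of complex I. For the proton channel subunit mt-Atp6 of the ATP synthase it was 24.3 RPKM, and for its small partner mt-Atp8 it was 8.73. The ranges of these 6 genes did not overlap with those of the 7 other protein genes, whose lowest single value was 511 RPKM, in mt-Nd5. The ribosomal RNAs mt-Rnr1 of the small subunit and mt-Rnr2 of the large subunit had median levels of 284 and 261 RPKM. mt-Atp8 and mt-Atp6 share 43 bases and mt-Nd5 and mt-Nd6 share 14, and the counts were made without regard to strand, so reads in such overlaps and antisense reads could not be told apart.

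**Figure D1:**
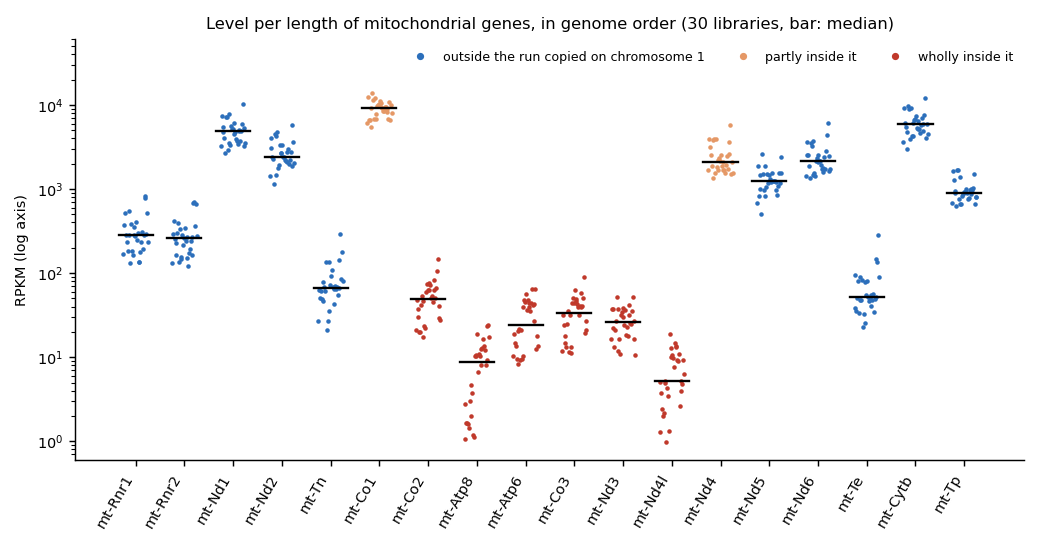
RPKM (log axis) of the 13 protein genes, both rRNA genes and the 3 most counted tRNA genes in genome order, 1 point per library (30 libraries), bar at the median. The 6 genes wholly inside the run copied on chromosome 1, in red, had medians of 5.26 to 48.6 RPKM, against 1238 or more for the other protein genes.

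Among the tRNA genes, 3 were at 0 in all 30 libraries (mt-Tf, mt-Td and mt-Tk), and 5 reached a mean of 10 counts: mt-Tp, mt-Tn, mt-Te, mt-Tl1 and mt-Tw. The tRNA for proline, mt-Tp, held most of the class, with 727 to 2025 counts per library. The next were mt-Tn for asparagine, with 25 to 305 counts, and mt-Te for glutamate, with 26 to 328. These 3 lie on the minus strand, next to or near genes read the other way, and are printed whole since they carried most tRNA counts:
mt-Tp, MT:15356-15422, minus strand: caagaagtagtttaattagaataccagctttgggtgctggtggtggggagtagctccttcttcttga
mt-Te, MT:14071-14139, minus strand: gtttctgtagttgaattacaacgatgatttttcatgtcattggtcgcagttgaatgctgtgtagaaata
mt-Tn, MT:5089-5159, minus strand: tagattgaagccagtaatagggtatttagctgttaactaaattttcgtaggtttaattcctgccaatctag
The leucine tRNA mt-Tl1 had 2 to 35 counts and the tryptophan tRNA mt-Tw 2 to 39. The other 14 tRNA genes had at most 50 counts in any library, that value being in mt-Th.

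All mitochondrial genes together took 1.94% to 6.72% of the counts of a library, and library totals were 14083958 to 20256049. Thyroid markers were high in every library: the mean log2(CPM + 1) over 14 thyrocyte genes was 7.23 to 8.79. Neighbouring tissue was present to unequal degrees. In 5 libraries, all FAD4T, the mean over 9 thymocyte genes exceeded 2: replicate 1 of the males of 8 months, replicates 2 and 3 of the males of 2 months, and replicates 1 and 2 of the females of 2 months. Results without these 5 are given where they change, in part only in the closing section on processing. Without them, only replicate 1 of the FAD4T males and replicate 3 of the FAD4T females stand for FAD4T at 2 months. Skeletal muscle genes (18) had levels of 1.15 to 9.41, and liver genes (10) had 3.53 to 5.08 in all libraries of 8 months, against at most 1.32 elsewhere except 7.27 in wild-type females of 2 months, replicate 1. The part of these tissues in the results was not tested. In bulk RNA, a change in the number of cells of a type and a change in RNA per cell cannot be told apart.

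The first question was whether mitochondrial transcripts differ between FAD4T and wild-type thyroids. No mitochondrial gene passed the test in any sex or age. The summed share of mitochondrial counts was 4.0% ± 1.5 in FAD4T thyroids and 3.4% ± 1.0 in wild-type thyroids (SD, n = 12 each), and the ranges overlapped (2.43% to 6.72% in FAD4T, 1.94% to 5.94% in wild type). The difference was 0.20 on the log2 scale, positive in 3 of 4 sex and age strata (exact two-sided permutation test within strata over 160000 relabellings, p = 0.308, and 0.553 after Benjamini-Hochberg adjustment over 24 such tests). Without the 5 libraries of high thymocyte level the difference was -0.20. Each FAD4T group of 2 months then held 1 library, so no p-value is given.

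At 2 months the FAD4T libraries spread widely. The share was 2.43%, 5.99% and 4.07% in FAD4T males of 2 months, against 3.40%, 3.07% and 1.94% in wild-type males of 2 months. It was 6.72%, 6.17% and 2.45% in FAD4T females of 2 months, against 5.94%, 2.49% and 2.72% in wild-type females of 2 months. The high libraries (FAD4T males 2 and 3, FAD4T females 1 and 2 and wild-type female 1) were also those with the lowest shares of Tg, the hormone precursor thyroglobulin, at 4.64% to 8.86% of counts, and the 4 FAD4T ones were among those of high thymocyte level.

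At 8 months the libraries were closer together. The share was 3.87%, 3.84% and 3.77% in FAD4T males, against 4.08%, 3.37% and 3.56% in wild-type males. In females it was 2.91%, 2.97% and 2.83% in FAD4T, against 3.20%, 4.02% and 3.02% in wild type. Every FAD4T female of 8 months thus lay below every wild-type one. These groups also differed in other tissue. Skeletal muscle levels were 1.15 to 1.69 in the FAD4T females and 4.47 to 7.1 in the wild-type ones. Kidney levels were 1.06 to 1.13 and 2.00 to 2.45. The part of these tissues in the difference was not tested. With 3 mice against 3 an exact permutation test cannot go below p = 0.1.

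By gene, 0 of 24 mitochondrial genes tested passed an adjusted p of 0.05 in edgeR's quasi-likelihood test averaged over the 4 strata, where 0% of all 18493 genes passed. The count was also 0 of 24 in males of 8 months (0% of all genes), females of 8 months (0.0216%), males of 2 months (0%) and females of 2 months (0%). At an unadjusted p under 0.05 the counts were 0, 0, 0, 1 and 1 of 24 in the same order, beside 2855, 335, 862, 2679 and 3087 of all 18493 genes, and DESeq2 called 0 mitochondrial genes in each. Without replicate 3 of the FAD4T females of 2 months, 2 of the 24 genes passed in that stratum. The share of all genes called is not given for DESeq2 or for that fit, so neither count is read as a result about these genes. The median log2 fold change over the 24 genes was 0.11 in the mean over strata, against -0.01 over all genes tested, and it was 0.51 in males and 0.36 in females of 2 months and -0.09 in males and -0.23 in females of 8 months.

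The members with the most counts had close levels in both genotypes. mt-Co1 had 9310, 14585 and 21280 CPM (lowest, median and highest of 12) in FAD4T thyroids, against 8361, 14375 and 18696 CPM in wild-type thyroids. mt-Cytb had 4165, 6983 and 11091 CPM in FAD4T thyroids, against 3383, 6182 and 10370 CPM in wild-type thyroids. These ranges overlapped almost wholly. The log2 fold change of FAD4T over wild type was 0.11 ± 0.15 for mt-Co1 and 0.17 ± 0.18 for mt-Cytb (± SE), and mt-Nd4l had the largest of the protein genes, 0.50 ± 0.24 (edgeR adjusted p = 0.325). The 4 interaction tests of FAD4T with sex and with age called 0 mitochondrial genes, and 0% of all genes passed in each.

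The next question was how the mitochondrial genes differ between thyroids of 8 and 2 months, which could be asked in 4 strata of genotype and sex, with the 12 libraries of 2 months that stand beside those of 8 months and without numbers 4 to 6. Higher counts at 8 months were seen in genes of the copied run: mt-Atp6 and mt-Atp8 passed the test in all 4 strata, while 0 genes outside the run passed in any stratum. In the mean over strata 5 genes were higher (mt-Atp8, mt-Nd4l, mt-Atp6, mt-Co3 and mt-Co2) and 1 was lower, the tRNA mt-Tl2. Of all genes tested 15.8% were higher and 16.8% lower in this mean (32.6% either). The 5 of 24 higher is a share near that background and the 1 of 24 lower is below it, so neither count is a result about mitochondrial genes as a whole. By place, 5 of 6 protein genes wholly inside the run were called, against 0 of 7 other protein genes and 0 of 2 rRNA genes. Liver markers moved with age as well: their summed level was 257 to 631 CPM in males of 8 months (10 of 10 markers with a mean of 10 counts), against 1.73 to 7.18 CPM in males of 2 months (at most 4 of 10). Kidney markers (7) had levels of 2.19 to 2.79 in males of 8 months (6 or 7 with a mean of 10 counts, summed level 137.4 to 180.5 CPM), against 0.944 to 1.11 in males of 2 months (1 of 7, 78.3 to 177.4 CPM). In wild-type females kidney levels were 2.00 to 2.45 at 8 months and 0.994 to 1.10 at 2 months. In FAD4T females they were 1.06 to 1.13 and 0.872 to 1.02, with 1 of 7 markers at a mean of 10 counts at both ages. Airway and lung markers (6) had levels of 4.35 to 4.42 in FAD4T females of 8 months (6 of 6, 405.8 to 528.5 CPM), against 1.05 to 1.34 in FAD4T females of 2 months (4 of 6, 10.5 to 17.95 CPM). In wild-type females they were 2.42 to 5.05 at 8 months and 1.24 to 1.39 at 2 months. Wild-type males had 2.30 to 3.27 and 1.09 to 1.73, while in FAD4T males the ages overlapped, with 2.44 to 3.20 and 1.13 to 2.97. The part of these tissues in the result was not tested.

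mt-Atp6 showed the difference in every library. It had 27.0, 32.9 and 30.8 CPM in FAD4T males of 8 months, against 7.02, 12.9 and 9.96 CPM in FAD4T males of 2 months. It had 38.6, 24.6 and 32.5 CPM in wild-type males of 8 months, against 9.35, 6.4 and 5.65 CPM in wild-type males of 2 months. All 6 values of 8 months in males lay above all 6 of 2 months. In FAD4T females mt-Atp6 had 26.9, 29.9 and 24.4 CPM at 8 months, against 14, 14.7 and 6.36 CPM at 2 months. In wild-type females it had 30.1, 44.3 and 28.7 CPM at 8 months, against 14.5, 6.53 and 7.09 CPM at 2 months. No value of 8 months overlapped with those of 2 months beside it in either sex, and the log2 fold change over the 4 strata was 1.74 ± 0.16 (edgeR adjusted p = 2.1e-06). The further wild-type males of 2 months numbered 4 to 6 had 18.5, 29.1 and 44.3 CPM, overlapping with the males of 8 months.

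The other members of the run that were called followed with different sizes. mt-Atp8 had 1.36, 2.18 and 3.85 CPM at 8 months (lowest, median and highest of 12), against 0.219, 0.336 and 0.948 CPM at 2 months, from 24 to 65 counts per library at 8 months and 4 to 17 at 2 months. mt-Nd4l had 2.26, 3.17 and 5.54 CPM at 8 months, against 0.289, 0.878 and 1.56 CPM at 2 months. In these libraries the ages did not overlap in either gene, and the log2 fold changes were 2.50 ± 0.23 for mt-Atp8 (edgeR adjusted p = 2.1e-06) and 1.94 ± 0.25 for mt-Nd4l (edgeR adjusted p = 4.0e-05). Wild-type males of 2 months numbered 4 to 6 had 2.47, 1.65 and 4.75 CPM of mt-Atp8, overlapping with 8 months. They had 0.784, 1.18 and 1.56 CPM of mt-Nd4l, below 8 months.

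For the complex IV subunits the ages overlapped slightly. mt-Co3 had 25, 34.9 and 49.3 CPM at 8 months, against 8.67, 12.9 and 27.9 CPM at 2 months. mt-Co2 had 31.0, 43.0 and 56.4 CPM at 8 months, against 11.7, 18.5 and 36.4 CPM at 2 months. The overlap came from the 2-month libraries with a high share of mitochondrial counts. Their log2 fold changes were 1.22 ± 0.19 for mt-Co3 (edgeR adjusted p = 0.000266) and 1.02 ± 0.17 for mt-Co2 (edgeR adjusted p = 0.000511). The 5 calls held in every alternative run, each of 24 fits without 1 library included.

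mt-Nd3, the other complex I subunit of the run, did not pass: it had 6.29, 10.7 and 14.6 CPM at 8 months, against 3.8, 7.5 and 18.2 CPM at 2 months, with a log2 fold change of 0.24 ± 0.22. Outside the run the 5 protein genes had log2 fold changes of -0.17 to 0.07 and the rRNAs of -0.19 and -0.15, and the 2 genes partly inside had 0.16 (mt-Co1) and -0.33 (mt-Nd4). mt-Co1 had 12736, 14557 and 17053 CPM at 8 months, against 8361, 11211 and 21280 CPM at 2 months, so that the younger libraries reached both further down and further up. The same held for mt-Cytb, with 5318, 6789 and 8420 CPM at 8 months, against 3383, 5905 and 11091 CPM at 2 months.

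The fall of mt-Tl2, a second leucine tRNA, rested on few reads. It had 0 to 15 counts per library at 8 months and 0 to 35 at 2 months, with a log2 fold change of -1.88 ± 0.68 (edgeR adjusted p = 0.0394). It lost its call in 17 of 24 fits without 1 library, and without the 5 libraries of high thymocyte level its log2 fold change was 0.26. Each FAD4T group of 2 months then held 1 library, so no p-value is given for that fit.

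By stratum, 3 of 24 genes were higher in FAD4T males (0.865% of all genes were higher, 0.708% lower, 1.57% either), 3 in FAD4T females (4.15% higher, 5.98% lower, 10.1% either), 4 in wild-type males (0.422% higher, 0.27% lower, 0.692% either) and 2 in wild-type females (0.205% higher, 0.0487% lower, 0.254% either). None was lower, and each count of higher genes was above its background. The 4 in wild-type males were mt-Atp8 (log2 fold change 2.93 ± 0.48), mt-Atp6 (2.17 ± 0.32), mt-Co3 (1.79 ± 0.39) and mt-Co2 (1.61 ± 0.35). In both FAD4T strata they were mt-Atp8 (2.52 ± 0.46 in males, 1.71 ± 0.44 in females), mt-Nd4l (2.06 ± 0.49 in males, 1.93 ± 0.49 in females) and mt-Atp6 (1.63 ± 0.32 in males, 1.25 ± 0.31 in females). In wild-type females they were mt-Atp8 (2.83 ± 0.46) and mt-Atp6 (1.9 ± 0.32). These counts depended on single libraries: every fit of wild-type males without 1 library called 2. In FAD4T females the count was 0 without any one of 5 libraries and 11 (3 higher, 8 lower) without replicate 3 of 2 months. The share of all genes called in that fit is not given here, so the 11 is not read as a result about these genes. In FAD4T males it was 0 without replicate 3 of 2 months and 1 without replicate 2 or 3 of 8 months. In wild-type females it was 4, 1 and 0 without replicates 1, 2 and 3 of 2 months and 0 without replicate 2 of 8 months. Without the libraries of high thymocyte level, 1 library of 2 months is left in each FAD4T stratum, so no count is given. The log2 fold changes of mt-Atp6 were then 2.18 in FAD4T males and 2.09 in FAD4T females.

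**Figure D2:**
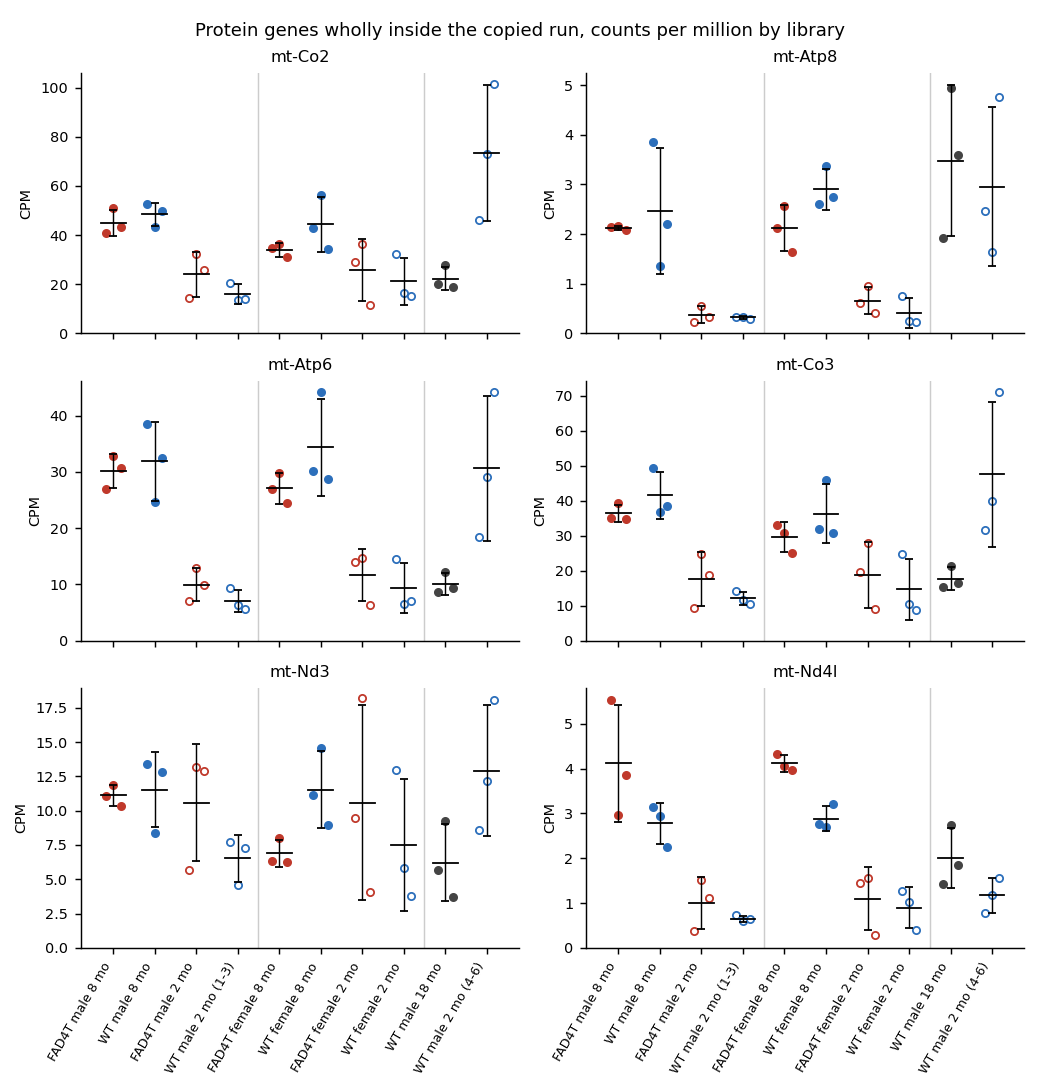
CPM of the 6 protein genes wholly inside the copied run, 1 point per library, with mean and SD per group (n = 3; WT, wild type; mo, months; open points, 2 months; red, FAD4T; blue and grey, wild type). mt-Atp6, mt-Atp8 and mt-Nd4l of 8 months lie above those of 2 months beside them in both sexes, and wild-type males of 2 months numbered 4 to 6 lie apart from those numbered 1 to 3.

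The 7 chromosome 1 copies were all higher at 8 months, whether or not the gene they match was called. Gm10925, the copy of mt-Atp6, had means of 49.6 ± 6.2 CPM in FAD4T males and 53.3 ± 7.5 CPM in wild-type males of 8 months, against 13.9 ± 5.5 CPM in FAD4T males and 9.61 ± 0.90 CPM in wild-type males of 2 months (SD, n = 3 each). Over the 4 strata its log2 fold change at 8 months was 2.12 ± 0.17 (edgeR adjusted p = 5.9e-07). The 6 other models of the run were also higher, with log2 fold changes of 1.18 (Gm28661, the copy of mt-Co2) to 2.24 (Gm10222, the copy of mt-Nd4l). Gm28438, the copy of mt-Nd3, rose by 1.53 ± 0.25, Gm28439, the copy of the start of mt-Nd4, by 1.88 ± 0.19 and Gm29216, the copy of the end of mt-Co1, by 1.81 ± 0.16. The log2 fold changes of their matching genes were 0.24 for mt-Nd3, -0.33 for mt-Nd4 and 0.16 for mt-Co1, none called, and the difference between copy and gene was not tested. Less similar copies on chromosome 2 rose too, Gm13341 (95.9% identical to mt-Co2) by 1.49 ± 0.16 and Gm13340 (97.6% identical to mt-Co1) by 1.3 ± 0.16.

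As a share of mitochondrial counts, the 6 protein genes inside the run took 0.312% to 0.439% in the 12 libraries of 8 months, against 0.112% to 0.201% in the 12 libraries of 2 months beside them. The 7 copies amounted to 0.510% to 0.866% of the mitochondrial count at 8 months, against 0.125% to 0.251% at 2 months. Neither range overlapped between the ages. The copies held 1.51 to 2.24 times as many counts as the 6 genes at 8 months, against 1.11 to 1.48 times in the 12 libraries of 2 months beside them. In wild-type males of 2 months numbered 4 to 6, the 6 genes took 0.311% to 0.403%, within or near the range of 8 months, and the copies held 1.43 to 1.61 times as many counts, overlapping with it. Whether the reads counted to these 6 genes came from mitochondria or from chromosome 1 was not tested.

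**Figure D3:**
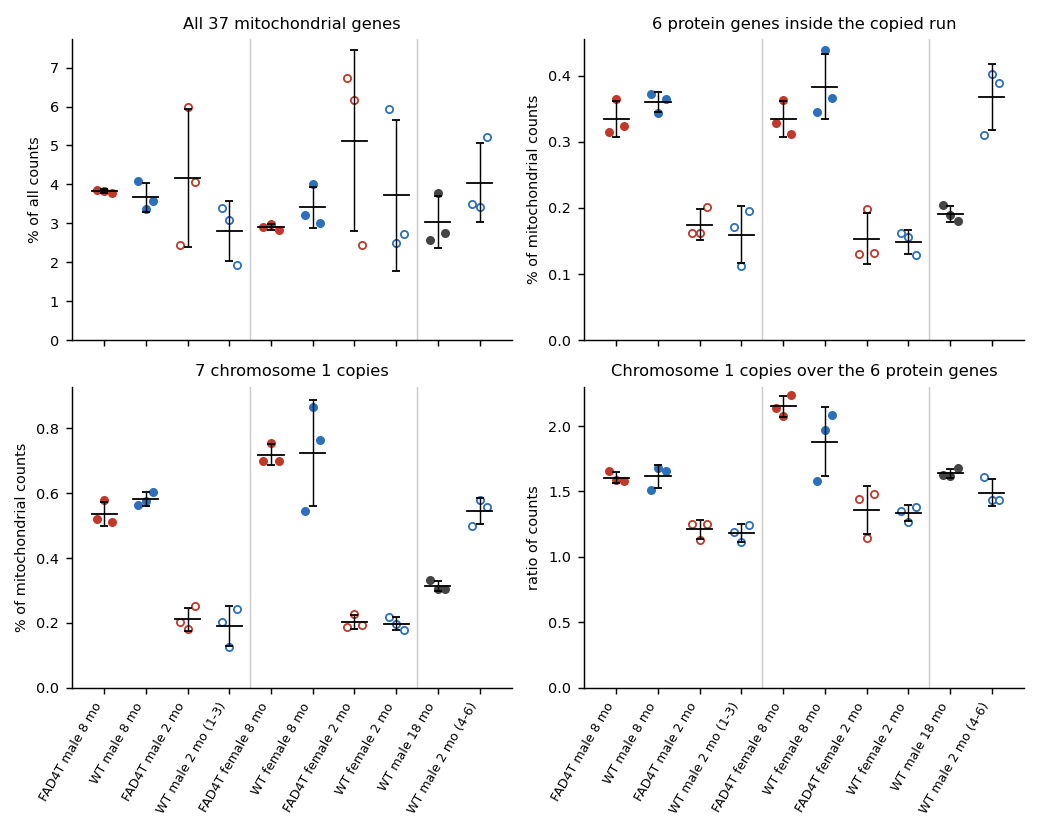
All mitochondrial genes as a percent of counts, the 6 protein genes of the copied run and the 7 chromosome 1 copies as a percent of mitochondrial counts, and the ratio of copies to the 6 genes, 1 point per library with mean and SD per group (n = 3; open points, 2 months). The total share overlaps between 8 and 2 months, while the 6 genes take 0.312% to 0.439% at 8 months, against 0.112% to 0.201% in the libraries of 2 months beside them.

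The age comparison in the other set asked how wild-type males of 18 months differ from those of 2 months numbered 4 to 6. Mitochondrial genes were lower at 18 months where they differed: 6 of 20 genes tested were lower and 0 higher in edgeR, where 18.8% of all 16283 genes were lower and 17.1% higher (35.9% either). The 6 of 20 is above the share of all genes that were lower and below the share changed in either direction, so the count alone is not read as a result about these genes. The 6 were mt-Co2 and mt-Co3 of complex IV, mt-Atp6 of the ATP synthase, mt-Nd4 and mt-Nd6 of complex I and the tRNA mt-Tp. The median log2 fold change was -0.61 over the 20 genes, against -0.01 over all genes tested.

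mt-Co2 had 20.1, 27.7 and 19.0 CPM in wild-type males of 18 months, against 46.0, 73.2 and 101 CPM in those of 2 months numbered 4 to 6. mt-Atp6 had 8.58, 12.3 and 9.37 CPM at 18 months, against 18.5, 29.1 and 44.3 CPM at 2 months. The ages did not overlap in either gene, and both were highest in number 6. The log2 fold changes were -1.76 ± 0.31 for mt-Co2 (edgeR adjusted p = 0.00675) and -1.64 ± 0.33 for mt-Atp6 (edgeR adjusted p = 0.00788).

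mt-Co3 had 15.2, 21.4 and 16.4 CPM at 18 months, against 31.8, 39.9 and 71.1 CPM at 2 months. mt-Nd6 had 841, 1292 and 906 CPM at 18 months, against 1482, 2275 and 3150 CPM at 2 months. Both were again without overlap, and their log2 fold changes were -1.47 ± 0.32 (mt-Co3, edgeR adjusted p = 0.0128) and -1.22 ± 0.30 (mt-Nd6, edgeR adjusted p = 0.0148). mt-Nd4 fell by 1.25 ± 0.31 on the log2 scale and mt-Tp by 0.66 ± 0.18. The count was 3 without number 6 of 2 months and 2 without replicate 1 of 18 months. For those fits the share of all genes called is not given here, so neither count is read as a result about these genes.

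Other members did not follow. The log2 fold change of 18 over 2 months was 0.53 ± 0.32 for mt-Nd5, 0.74 ± 0.44 for mt-Nd4l and 0.20 ± 0.48 for mt-Atp8, and -0.13 ± 0.25 for mt-Co1, none of which passed. mt-Nd5 had 2147, 4417 and 2830 CPM at 18 months, against 1535, 2004 and 2817 CPM at 2 months, with ranges that overlapped. mt-Cytb (-0.84 ± 0.30, edgeR adjusted p = 0.0541) and mt-Nd3 (-1.09 ± 0.40, edgeR adjusted p = 0.0655) fell short of the threshold. Of the chromosome 1 copies, 5 were lower at 18 months by 1.08 to 1.75 on the log2 scale, and Gm28439 and Gm10222 did not pass.

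The reference of this comparison differed from the other wild-type males of the same labelled age. Males of 2 months numbered 4 to 6 had 9 of 25 mitochondrial genes higher than males numbered 1 to 3 and 0 lower (edgeR, fit of all 30 libraries; 10.2% of all genes were higher, 11.5% lower and 21.6% either), a share above the background. These were mt-Atp8 (log2 fold change 3.18 ± 0.52), mt-Co2 (2.20 ± 0.37), mt-Atp6 (2.10 ± 0.35), mt-Co3 (1.98 ± 0.40), mt-Tn (1.67 ± 0.57), mt-Rnr1 (1.41 ± 0.46), mt-Rnr2 (1.35 ± 0.43), mt-Nd6 (1.20 ± 0.37) and mt-Nd4 (1.05 ± 0.37). mt-Co2, for instance, had 46.0, 73.2 and 101 CPM in numbers 4 to 6, against 20.7, 13.5 and 13.8 CPM in numbers 1 to 3. The 18-month values of 19.0 to 27.7 CPM overlapped with those of numbers 1 to 3. The count was 4 without number 2, 3 or 6 and 5 without number 5, and with all 6 young males as the reference 0 mitochondrial genes were called at 18 months. The share of all genes called in those fits is not given here, so these counts are not read as results about mitochondrial genes. The sets differ in more than age: skeletal muscle genes had levels of 6.78 to 8.85 at 18 months (16 of 18 markers with a mean of 10 counts, summed level 4689 to 31510 CPM) and 7.04 to 9.41 in numbers 4 to 6 (16 of 18, 6221 to 46580 CPM), but 1.20 to 6.46 in numbers 1 to 3 (15 of 18, 40.6 to 4695 CPM). Fat markers differed too. White adipocyte genes (7, all with a mean of 10 counts in each group) had levels of 4.22 to 5.37 at 18 months (summed level 214.5 to 485 CPM), against 6.75 to 7.22 in numbers 4 to 6 (1626 to 2222 CPM) and 5.47 to 6.21 in numbers 1 to 3 (613.5 to 918.5 CPM). Brown adipocyte genes (5, likewise) had levels of 2.07 to 4.11 at 18 months (28.1 to 150.1 CPM), against 4.78 to 5.24 in numbers 4 to 6 (269.8 to 344.8 CPM) and 3.67 to 4.25 in numbers 1 to 3 (106.3 to 164 CPM). The part of muscle and fat in these differences was not tested.

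**Figure D4:**
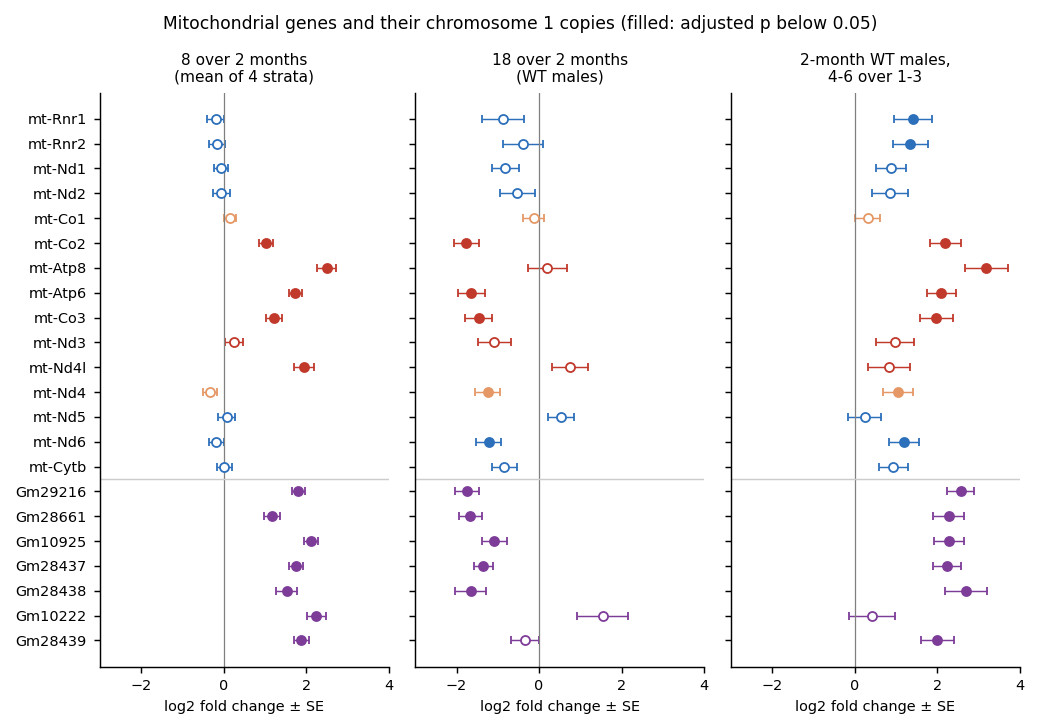
Log2 fold changes ± SE of 13 protein and 2 rRNA genes (above the line) and of the 7 chromosome 1 copies (below it) in 3 comparisons, filled where the edgeR adjusted p was below 0.05 (red, protein genes wholly inside the copied run; orange, partly inside; blue, outside; purple, copies). At 8 months the genes called higher are in the run or are its copies. In 2-month males 4 to 6 the genes called higher also include mt-Nd6, both rRNAs and mt-Nd4, which lies partly inside. Those called lower at 18 months also include mt-Nd6 and mt-Nd4. Numbers 4 to 6 are also the reference of the middle panel.

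Ratios between mitochondrial genes within a library do not depend on the library total. They are ratios of counts, not scaled to gene length. mt-Nd1 lies upstream of mt-Nd5 on the same strand, at 2751 to 3707 and at 11742 to 13565 of the mitochondrial genome. Their ratio was 1.45, 1.16 and 1.20 in wild-type males of 18 months, against 3.05, 2.79 and 3.48 in those of 2 months numbered 4 to 6. The ratio of mt-Rnr2 to mt-Rnr1 was 2.04 ± 0.058 at 18 months and 1.48 ± 0.077 at 2 months (SD, n = 3 each). That of mt-Nd6 to mt-Cytb, which are read from opposite strands, was 0.182 ± 0.0078 at 18 months and 0.237 ± 0.022 at 2 months. None of the 3 ratios overlapped between 18 months and numbers 4 to 6. The permutation p of each was 0.1, the smallest that 3 against 3 allows, or 0.267 after adjustment over the 24 tests. In wild-type males of 2 months numbered 1 to 3, mt-Nd6 over mt-Cytb was 0.210, 0.176 and 0.210, overlapping with 18 months. There mt-Nd1 over mt-Nd5 was 2.51, 1.47 and 2.72, the lowest next to the 1.45 of 18 months. Their ratio of mt-Rnr2 to mt-Rnr1 was 1.49, 1.59 and 1.46, below 18 months. FAD4T females of 8 months had mt-Nd1 over mt-Nd5 ratios of 1.32, 1.58 and 1.46, overlapping with 18 months.

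Over the 24 libraries of the FAD4T set, 3 of the remaining 18 exact permutation tests passed after adjustment. The ratio of mt-Nd6 to mt-Cytb was 0.157 ± 0.012 at 8 months and 0.179 ± 0.018 at 2 months (SD, n = 12 each), lower at 8 months in 4 of 4 strata (log2 difference -0.18, adjusted permutation p = 0.0273). The tRNA share of mitochondrial counts was 0.202% ± 0.017 at 8 months and 0.235% ± 0.030 at 2 months, lower in 3 of 4 strata (log2 difference -0.21, adjusted permutation p = 0.0386). The rRNA share was 2.00% ± 0.49 in males and 1.51% ± 0.32 in females, higher in males in 4 of 4 strata (log2 difference 0.40, adjusted permutation p = 0.0317). All 3 had overlapping ranges, and each lost its call without some single libraries: 2 of 24 for mt-Nd6 over mt-Cytb, 6 for the rRNA share and 13 for the tRNA share. Without the 5 libraries of high thymocyte level, each FAD4T group of 2 months held 1 library, so no call is drawn from that run. The log2 differences of mt-Nd6 over mt-Cytb and of the tRNA share are then given in the closing section on processing. With same-numbered libraries as pairs, which the numbers were not shown to be, none of the 3 passed. By gene, 0 of 24 mitochondrial genes differed between males and females in edgeR, where 0.741% of all genes were higher and 1.14% lower in males (1.88% either), and mt-Rnr1 and mt-Rnr2 had log2 fold changes of 0.37 ± 0.21 and 0.34 ± 0.19; 1 of 24 had an unadjusted p under 0.05, beside 2422 of all 18493 genes, and DESeq2 called 0 of the 24.

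**Figure D5:**
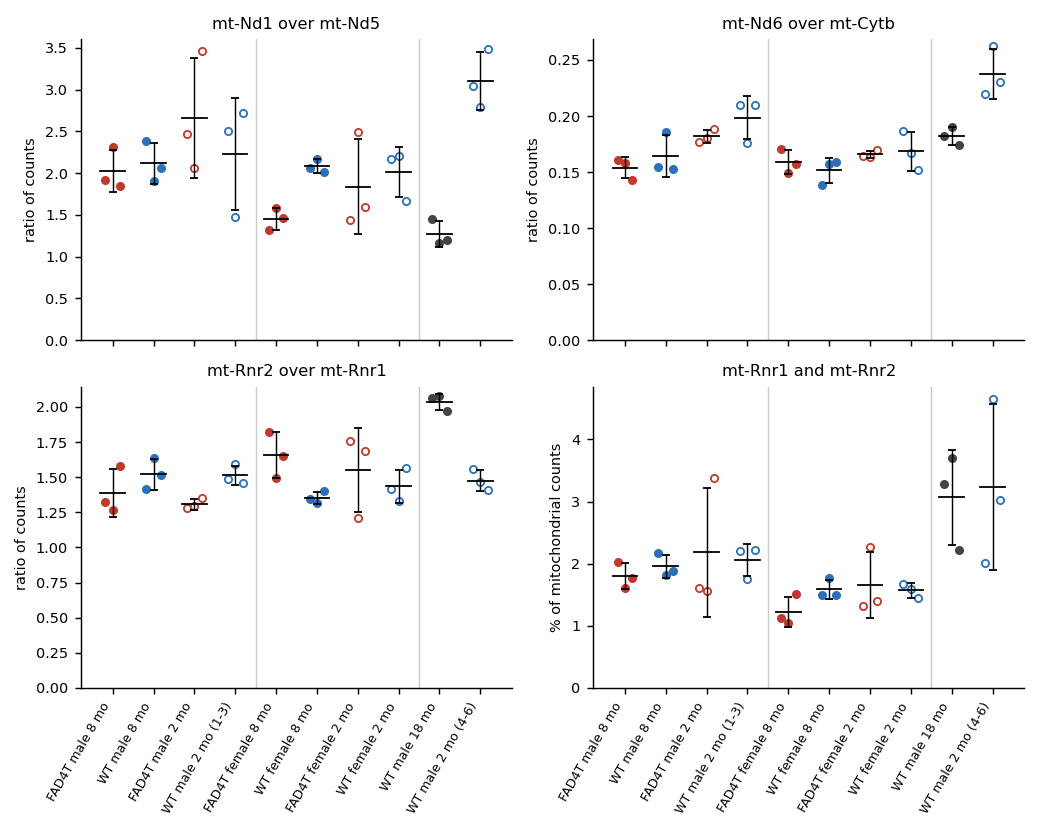
Ratios of counts within a library (mt-Nd1 over mt-Nd5, mt-Nd6 over mt-Cytb, mt-Rnr2 over mt-Rnr1) and the rRNA share of mitochondrial counts, 1 point per library with mean and SD per group (n = 3; open points, 2 months). Wild-type males of 18 months (grey) have mt-Nd1 over mt-Nd5 ratios of 1.16 to 1.45. In those of 2 months they are 2.79 to 3.48 in numbers 4 to 6 and 1.47 to 2.72 in numbers 1 to 3.

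The nuclear genes that serve the mitochondrial genome were read from the same fits, as 11 lists of 248 tested genes. In FAD4T against wild-type thyroids 0 of 248 passed in any stratum. At 8 against 2 months 41 were higher and 36 lower in the mean over strata, near the backgrounds of 15.8% and 16.8%. Tfam, which packages mitochondrial DNA and starts its transcription, rose: it had 43.7 ± 2.8 CPM in FAD4T males and 45.4 ± 1.8 CPM in wild-type males of 8 months, against 31.8 ± 3.4 CPM in FAD4T males and 40.0 ± 2.9 CPM in wild-type males of 2 months. Its log2 fold change over strata was 0.33 ± 0.053 (edgeR adjusted p = 0.000283). By stratum Tfam passed in FAD4T males (0.48 ± 0.11) and FAD4T females (0.46 ± 0.11), and in neither wild-type stratum. Also higher were the mitoribosomal protein Mrpl16 (0.52 ± 0.095), the respiratory chain subunit Ndufa4 (0.44 ± 0.089) and Trmt10c (0.34 ± 0.071), a part of the enzyme that cuts tRNA 5′ ends. Lower were the nucleotide carrier Slc25a36 (-0.68 ± 0.12), the tRNA-modifying enzyme Gtpbp3 (-0.28 ± 0.062), Mrpl33 (-0.39 ± 0.087) and the primase Primpol (-0.59 ± 0.14).

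By list at 8 against 2 months, 7 of 19 nuclear ATP synthase genes and 3 of 9 complex III genes were higher with 0 lower, whereas 9 of 18 genes of mitochondrial DNA replication and nucleotide supply were lower with 0 higher. The list named complex I, which here and below also counts Ndufa4, a complex IV subunit, was split, 4 higher and 3 lower of 37. Mitoribosomal proteins were split too, 12 and 10 of 82. The RNA-binding protein Lrpprc, which stabilises mitochondrial messenger RNAs, rose by 0.18 ± 0.063 on the log2 scale (edgeR adjusted p = 0.0381). Its partner Slirp (-0.38 ± 0.16), the mitochondrial RNA polymerase Polrmt (-0.21 ± 0.084) and the transcription factor Tfb2m (0.07 ± 0.068) did not pass.

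At 18 against 2 months 153 of the 248 were lower and 9 higher, beside 18.8% lower and 17.1% higher of all genes tested. Lower were 35 of 37 complex I genes (median log2 fold change -1.19), 15 of 16 of complex IV (-1.27), 8 of 9 of complex III (-1.12), 17 of 19 of the ATP synthase (-0.99) and 64 of 82 mitoribosomal proteins (-0.64), against -0.01 over all genes tested. The complex I subunit Ndufs4 had 57.5 ± 2.6 CPM at 18 months and 137 ± 22 CPM at 2 months (SD, n = 3 each; edgeR adjusted p = 0.000981). Hsd17b10, a further part of the enzyme that cuts tRNA 5′ ends, had 53.3 ± 1.4 CPM at 18 months and 126 ± 6.1 CPM at 2 months. The other 2 with the smallest adjusted p were the complex I subunits Ndufs8 (-1.21 ± 0.12) and Ndufc2 (-1.42 ± 0.15). Higher were the mitochondrial DNA ligase Lig3 (1.12 ± 0.16), the coactivator Pprc1 (1.29 ± 0.18), the nucleotide reductase subunit Rrm2b (0.75 ± 0.13) and Gabpa (0.69 ± 0.12), a transcription factor for respiratory genes. Slirp was lower (-0.81 ± 0.16, edgeR adjusted p = 0.00526), and Tfam (-0.05 ± 0.14), Polrmt (-0.03 ± 0.13), Tfb2m (0.39 ± 0.14) and Lrpprc (0.25 ± 0.16) did not pass.

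These nuclear genes also differed between the young males. In numbers 4 to 6 against 1 to 3, 124 of the 248 were higher and 12 lower, beside 10.2% higher and 11.5% lower of all genes, among them 33 of 37 complex I genes higher with 0 lower. Hsd17b10 had 126 ± 6.1 CPM in numbers 4 to 6 and 74.2 ± 5.8 CPM in numbers 1 to 3, and Ndufs4 had 137 ± 22 CPM in numbers 4 to 6 and 83.7 ± 12 CPM in numbers 1 to 3. For Hsd17b10 and Ndufs4 the mean of 18 months lay below that of numbers 1 to 3 as well, a difference that was not tested. The ATP synthase subunit Atp5k (2.26 ± 0.26), the complex I subunit Ndufs6 (1.45 ± 0.20) and Uqcr10 of complex III (1.38 ± 0.19) were the other genes with the smallest adjusted p among the higher ones. Among the lower ones they were Gabpa (-0.73 ± 0.12), Tfb2m (-0.66 ± 0.14), the transcription and ribosome assembly factor Mterf3 (-0.87 ± 0.20) and the transcription factor Yy1 (-0.45 ± 0.11). The comparison of 18 with 2 months shares numbers 4 to 6 with this one.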

How the data were processed

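The deposited values are raw counts of paired reads in the exons of each gene. The authors made them with featureCounts 1.6.0, GRCm38 and Ensembl 88 from alignments named for STAR, per the file headers, which show no strand option and none for reads with several places. Per the submitters' processing notes, the aligner was HISAT2 2.0.4 and the build GRCm39, unlike the headers, and cutadapt 1.9 and StringTie 1.3.4d were also used. Libraries were poly(A)-selected, strand-marked and sequenced as paired ends of 150 bases, per the labels' protocols.

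The main tests used edgeR 4.0.16 under R 4.3.3 (TMM scaling, filterByExpr at a minimum count of 10, robust quasi-likelihood, Benjamini-Hochberg adjustment over all genes, threshold 0.05, prior count 0.125); the standard error is the fold change over the square root of F. A single model held the 24 FAD4T-set libraries (18493 genes, 24 mitochondrial ones passing the filter), another the 6 of the ageing set (16283 and 20), and a last one all 30, for the young males (18799 and 25). Genes that failed the filter had too few counts to test. Single values were log2 transformed and tested by exact permutation within strata. DESeq2 1.42.0 was an alternative. Copies were found with BLAST 2.17.0 against GENCODE M21 transcripts (at least 90% identity over 100 bases). Of 50686 genes 310 had no symbol. No 2 libraries of a group were identical. The main tests were tested on simulated data. The members and gene lists were chosen with earlier results of these data known. Named were all protein and rRNA genes, tRNA genes with a mean of 10 counts or more, and, of the nuclear lists, up to 4 genes in each direction with the smallest adjusted p, beside Tfam, Polrmt, Tfb2m, Lrpprc and Slirp; mt-Tl2 and mt-Th were named after their values were seen. Replicate numbers are shared between groups; deviations of same-numbered libraries correlated above 0.1 in every pair only in FAD4T and wild-type males of 8 months (0.511, 0.491 and 0.621), where the blocked fit called 0 mitochondrial genes too.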

Additional observations from a re-analysis of the deposited data

Results flagged for a closer look

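The change of wild-type males with age differed between the sets in 5 of 25 mitochondrial genes, by a test of the difference itself (18 against 2 months in the ageing set minus 8 against 2 months in the FAD4T set; edgeR, fit of all 30 libraries, a comparison added after the data were seen; 9.92% of all genes were higher, 9.5% lower and 19.4% either). All 5 lie wholly inside the run copied on chromosome 1. The log2 difference of the fold changes was -3.76 for mt-Atp6 (adjusted p = 5.8e-05), -3.33 for mt-Co2 (adjusted p = 0.000221), -3.21 for mt-Co3 (adjusted p = 0.0005), -2.69 for mt-Atp8 (adjusted p = 0.00682) and -1.87 for mt-Nd3 (adjusted p = 0.0433). mt-Nd4l, the other protein gene of the run, had -1.3 and did not pass. The difference counts the gap between the groups of young males, numbers 4 to 6 against 1 to 3, which was 2.10 for mt-Atp6, 2.20 for mt-Co2, 1.98 for mt-Co3, 3.18 for mt-Atp8 and 0.98 for mt-Nd3. Set and age cannot be told apart here, since each set has its own young males and no age other than 2 months is in both. Without number 1 or number 4 of the young males the count was 8 or 9, and mt-Nd3 lost its call in 8 of 12 fits without 1 library.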

How the results depend on the processing

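The counts of called genes were most unstable at 8 against 2 months by stratum. The share of all genes called is not given for the alternative fits, so no count from them is read as a result about mitochondrial genes. FAD4T males called 1 with the replicate block. FAD4T females called 1 with the block and 0 when fitted alone. Without the libraries of high thymocyte level no count is given for these strata, since each FAD4T group of 2 months then held 1 library. Wild-type males called 2 with no filter on low counts. Wild-type females called 4 with DESeq2, 1 with the block and 0 when fitted alone. At 18 months the count was 0 with all 6 young males as the reference, and mt-Co1 then had 0.047. The young males called 5 with no filter, and the added difference called 9 with DESeq2. Without 1 library the counts were 0 to 2 for FAD4T in females of 2 months, 0 to 3, 0 to 11, 2 to 2 and 0 to 4 at 8 against 2 months in FAD4T males, FAD4T females, wild-type males and wild-type females, 2 to 7 at 18 months, 4 to 11 for the young males and 4 to 9 for the difference.

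Without the libraries of high thymocyte level, the log2 difference of the mitochondrial share turned to -0.20 for FAD4T, 0.32 for age and 0.039 for sex, that of the tRNA share to -0.00443 for FAD4T and -0.038 for sex, and the fold changes of mt-Nd4 to 0.12 and mt-Tl2 to 0.26 at 8 months. The rRNA share for FAD4T was then -0.28, against -0.12 with all libraries. At 8 months mt-Nd6 over mt-Cytb was -0.19 and the tRNA share -0.18. Each FAD4T group of 2 months then held 1 library, so effect sizes alone are given and no call is drawn from them. The age difference of the mitochondrial share was 0.034 without Tg and 0.069 on the TMM-scaled total. With the replicate block as pairs the rRNA share by sex (0.40), mt-Nd6 over mt-Cytb (-0.18) and the tRNA share (-0.21) at 8 months had adjusted p of 0.123, 0.123 and 0.185; the numbers were not shown to pair these libraries. The block changed no FAD4T count. Without 1 library the log2 differences were -0.19 to 0.023 (share, age), -0.14 to 0.079 (share, sex), 0.31 to 0.46 (rRNA share, sex), -0.20 to -0.16 (mt-Nd6 over mt-Cytb, age), -0.016 to 0.051 and -0.015 to 0.053 (mt-Rnr2 over mt-Rnr1, FAD4T and age), 0.24 to 0.36 (mt-Nd1 over mt-Nd5, sex), -0.23 to -0.18 and -0.0084 to 0.038 (tRNA share, age and sex), and -0.28 to 0.060 for mt-Co1 and -0.12 to 0.74 for mt-Atp8 at 18 months. The causes were not tested. Members under about 10 counts per library (mt-Tl2, most tRNAs, mt-Atp8 at 2 months in the FAD4T set) rest on few reads, and why their counts are low was not tested.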
